A study of Mus musculus with 10 samples.

Results

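Microglia from mixed glial cultures (*in vitro*) were compared with microglia sorted from brain slices 1 day after cutting. Raw UMI counts (unique molecules per gene) were summed per library over cells with at most 5% mitochondrial UMIs, at least 400 genes and at most 30000 UMIs. This gave 4 of the 10 libraries of the series, which held 6631 of its 19059 cells, with 2417 and 2682 cells *in vitro* (replicates 1 and 2) and 518 and 1014 cells at slice 1 day. All 4 carried the same study label, so the levels set against each other in this contrast do not mix the labels of the series. The adult libraries given below as the reference carried different labels. The test below was fitted with libraries of both labels.

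All mice were C57BL/6. The *in vitro* microglia came from the cortices of pups at postnatal day 2, with the meninges taken off, and grew for 3 weeks in flasks with the other glia, in DMEM with fetal bovine and horse serum, before they were collected from the medium. The slices were coronal sections of the brains of pups at postnatal days 1 to 4, with the cerebellum removed, kept on inserts in horse serum medium with N2 and PDGF. They were pooled and homogenised on ice, and the cells were separated on Percoll. Both kinds of cells were sorted as live, CD11b high and CD45 intermediate. Adult microglia of mice 10 to 15 weeks old (2 libraries) are given as the reference of the study. No stimulus was added to any of these groups. Tissue, age, medium, time in culture and way of collection all differed between *in vitro* and slice 1 day, and their parts in a difference cannot be told apart. The study calls the libraries of a group independent samples, without saying whether they came from separate cultures or litters. The slice 1 day libraries differed in sex-linked RNA, so they did not hold the same mix of animals. The p-values measure the spread between libraries of a group. That spread was estimated over all 10 libraries of the series, not over these 4 alone.

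Microglia are the resident macrophages of the brain. Their adult identity depends on CSF1 receptor and TGF-beta signals from the tissue and on transcription factors such as SALL1 and PU.1, and the genes under this control are lost soon after the cells leave the brain. Macrophages that have lost this programme can still take up debris, carry lipid, answer interferon or turn on the genes of injury, hypoxia and inflammation.

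Both groups were low in homeostatic genes. Of the 41 homeostatic surface and secreted genes tested, 38 were lower *in vitro* than in adult and 39 were lower at slice 1 day than in adult, beside 28.5% and 25.3% of all 12157 genes tested, and none was higher in either, where 22.4% and 24.9% of all genes were. The medians of the list were -2.67 and -2.77 on the log2 scale. These comparisons share the adult libraries and are given side by side only.

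Cells of other types were unevenly present. In the slice 1 day libraries, 70 of 518 and 115 of 1014 cells had over 1% of their UMIs in 11 neutrophil markers (median 10.6% and 24.01% of their UMIs), and no *in vitro* cell did. These cells, called neutrophil cells here, held 4.79% and 8.20% of the UMIs of their libraries. The summed level of the 11 markers was 27.6 and 23.9 CPM (UMIs scaled to the library size with TMM factors) *in vitro* and 7528 and 22719 CPM at slice 1 day, and neutrophil RNA was also found outside those cells, at a median of 0.0611% and 0.452% of UMIs of the other slice cells. Erythroid markers reached 3327 CPM in slice 1 day replicate 1 and at most 1.24 CPM in the other 3 libraries. The 9 monocyte markers summed to 1.80 and 1.88 CPM *in vitro* and 361 and 649 CPM at slice 1 day, and the 11 markers of border-associated macrophages, which line the meninges and vessels, to 3482 and 3478 CPM *in vitro* and 639 and 606 CPM at slice 1 day. The neuron list summed to 0.835 and 0.645 against 44.3 and 21.5 CPM, the endothelial list to 5.11 and 4.60 against 31.7 and 20.2 CPM and the oligodendrocyte precursor list to 0.450 and 1.63 against 10.2 and 19.99 CPM. The B lymphocyte list summed to 8.74 and 6.03 against 40.6 and 33.4 CPM and the astrocyte list to 7.61 and 10.8 against 19.9 and 17.1 CPM. The oligodendrocyte list went the other way, at 84.85 and 73.98 CPM *in vitro* against 58.2 and 44.8 CPM. The pericyte and fibroblast list summed to at most 0.786 CPM and the T and NK list to at most 0.618 CPM in any library, with *Trac*, *Cd3e* and *Cd3g* at 0 in all 4. A further split ran through the cells. Of the slice cells that were not neutrophil cells, 150 of 448 and 362 of 899 had under 0.3% of their UMIs in *Malat1*, an abundant nuclear RNA, against 64 of 2417 and 134 of 2682 cells *in vitro*. The main counts are therefore given also without the neutrophil cells and these *Malat1*-poor cells, a smaller cell set chosen after the data were seen, and the plot of list shares shows both cell sets for each list of at least 10 tested genes. The part of either in a difference was not tested otherwise. Without the neutrophil cells the monocyte markers still summed to 234 and 262.5 CPM at slice 1 day, and the dendritic cell markers to 80.9 and 56.75 CPM. Cells of these types were not taken out as such, so the smaller cell set does not guard against their RNA.

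Markers of microglia were found in both groups, beside those of other macrophages. After each cell was thinned to 4000 UMIs, the median cell had 7 of 12 microglia markers in all 4 libraries, neutrophil cells left out. The 67 neutrophil cells of slice 1 day replicate 2 had a median of 4, so these markers separate cell types only in part. At least 2 border-associated macrophage markers were found in 94.2% and 95.5% of cells *in vitro* and in 27.6% and 32.7% of the slice cells, and at least 2 monocyte markers in 0.0414% and 0% *in vitro* and in 10.3% and 15.6% of the slice cells. The sort antigen genes were present in both groups. *Itgam*, which codes for CD11b, stood at 107 and 100 CPM *in vitro* and 177 and 160 CPM at slice 1 day, a difference of -0.70 (SE 0.15, adjusted p = 0.005) that did not pass without *in vitro* replicate 1 (-0.67) or 2 (-0.57). *Ptprc*, which codes for CD45, stood at 103 and 98.6 against 144 and 129 CPM and was not called.

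The 2 states differed in a large part of the transcriptome. Of 12157 genes tested, 1619 (13.3%) were higher and 2256 (18.6%) were lower *in vitro* than at slice 1 day (edgeR quasi-likelihood test, adjusted p under 0.05 and fold over 1.5), and the median over all genes was -0.07 on the log2 scale. Without the neutrophil cells 13.6% were higher and 18.5% lower, and without the neutrophil and *Malat1*-poor cells 12.5% were higher and 18.7% lower. With library size alone as the scale, the split was 1180 higher and 3014 lower and the median of all genes was -0.25, so small differences depend on the scaling. With limma on the mean CPM over cells it was 584 higher and 1417 lower. The libraries of a group were close, with a median absolute log2 difference of 0.12 *in vitro* and 0.22 at slice 1 day, against 0.51 between the group means. Total UMIs were 33957132 and 39689540 *in vitro* and 3661690 and 9539163 at slice 1 day, so the slice values carry the larger counting error.

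Genes of the adult identity programme were low in a different way in each state. No uncultured microglia of pups were analysed here, so the level before culture was not measured. Of the 41 homeostatic genes, 19 were lower and 6 were higher *in vitro* than at slice 1 day (median -0.65 on the log2 scale, 20 lower and 6 higher in the smaller cell set), beside 18.6% and 13.3% of all genes, and 10 were higher without slice 1 day replicate 1. A set of adult genes was close to absent *in vitro* and measurable in the slice cells, at levels under those of adult. *Sparc*, a secreted matrix protein gene that is among the most abundant transcripts of adult microglia (2553 CPM), was at 1.57 and 0.168 CPM *in vitro* and at 408 and 279 CPM at slice 1 day (log2 fold change -8.64, SE 0.69, adjusted p = 1.7e-05). It was found in 0.373% and 0.112% of *in vitro* cells and in 56.9% and 58.4% of slice cells at 4000 UMIs, and in 17.9% of the neutrophil cells of replicate 2 at the same depth. *Siglech*, a sialic acid receptor gene used to mark microglia, was at 0.385 and 0.0561 CPM *in vitro* and 54.3 and 30.2 CPM in slices (-7.56, SE 0.60, adjusted p = 1.6e-05), still far under its adult 1027 CPM. *Sall1*, the transcription factor gene that sets microglial identity, was at 0.321 and 0.0842 CPM against 15.2 and 12.1 CPM (-6.03, SE 0.35, adjusted p = 3e-06), with 118 CPM in adult. In all 3 the groups did not overlap, and both slice libraries lay between the *in vitro* and the adult levels. The size of these folds rests on few *in vitro* UMIs: without *in vitro* replicate 1 or 2 they were -10.83 and -7.68 for *Sparc*, -9.21 and -6.64 for *Siglech* and -7.07 and -5.26 for *Sall1*.

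The same order, *in vitro* lowest and adult highest, was found for further genes, some of them outside the list and chosen after their values were seen. *Lag3*, an inhibitory receptor gene, was at 0.578 and 0.309 CPM *in vitro* against 73.1 and 43.4 CPM in slices (-7.01, SE 0.36, adjusted p = 1.2e-06). *Ecscr*, first known from endothelium, whose marker list was also higher in slices, was at 1.03 and 1.18 CPM against 81.3 and 68.2 CPM (-6.06, SE 0.22). *Serpine2*, a protease inhibitor gene, was lower but not absent, at 20.3 and 20.9 CPM against 447 and 448 CPM (-4.44, SE 0.17). *Adora3*, an adenosine receptor gene, was at 2.86 and 2.53 CPM against 46.4 and 35.0 CPM (-3.90, SE 0.19). *Plpp1*, a lipid phosphatase gene, was at 0.321 and 0.505 against 37.5 and 49.5 CPM. *Fscn1*, an actin bundling gene, was at 0.835 and 0.365 against 64.2 and 51.1 CPM (-6.58, SE 0.36, and -7.18 without *in vitro* replicate 1). *Fscn1* is also a dendritic cell marker, and the dendritic list summed to 1.83 and 1.29 CPM *in vitro* and 77.1 and 52.8 CPM at slice 1 day. All 6 were called in the same direction in the smaller cell set.

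The best known surface markers were far under adult in both states, and the calls of *P2ry12*, *Tmem119* and *Selplg* between the states depended on single libraries. *P2ry12*, the ADP receptor gene that guides microglial processes, was at 60.02 and 42.6 CPM *in vitro* and at 155 and 77.0 CPM in slices against 6942 CPM in adult, and its difference of -1.17 (SE 0.29, adjusted p = 0.01) was lost without *in vitro* replicate 2 (-0.87) and without slice 1 day replicate 1 (-0.59). *Tmem119*, a membrane protein gene specific to microglia, was at 50.004 and 23.6 against 100 and 44.8 CPM, groups that overlapped (-0.96, SE 0.39, adjusted p = 0.075), with 2665 CPM in adult. It was called without *in vitro* replicate 1 (-1.53), without slice 1 day replicate 2 (-1.40) and in the smaller cell set (-1.29). *Gpr34* stood at 140 and 130 against 191 and 154 CPM, and *Selplg* at 93.5 and 94.7 against 217 and 92.9 CPM, and neither passed the test. *Selplg* was called without slice 1 day replicate 2 (-1.16), and its difference was 0.01 without slice 1 day replicate 1. The fractalkine receptor gene *Cx3cr1* was at 480 and 380 CPM *in vitro* and 480 and 498 CPM in slices, a log2 difference of -0.19 (SE 0.16).

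The transcription factor genes of the lineage were called about as often as other genes. Of 20 identity transcription factors tested, 4 were lower and 2 higher *in vitro* (20% and 10%, near the 18.6% and 13.3% of all genes, and 5 and 2 in the smaller cell set). *Spi1*, which codes for PU.1, was at 527 and 503 against 583 and 553 CPM, and *Irf8* at 333 and 303 against 396 and 354 CPM. *Mef2c* was at 250 and 220 against 322 and 316 CPM, a fold under 1.5. None of these 3 genes was called, though *Mef2c* passed in the smaller cell set (-0.64), and the values of *Spi1* lay near its adult 596 CPM while those of *Irf8* and *Mef2c* lay under their adult 805 and 767 CPM. *Maf*, a factor of resident macrophages, went the other way, at 408 and 349 CPM *in vitro* against 87.5 and 65.5 CPM in slices (2.31, SE 0.17, adjusted p = 1.1e-05), so that its *in vitro* level was not below its adult mean of 300 CPM.

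A smaller set of adult genes was higher *in vitro* than in slices. *Entpd1*, which codes for the ATP-degrading enzyme CD39, was at 60.4 and 60.3 CPM *in vitro* and 15.99 and 7.32 CPM in slices (2.47, SE 0.29, adjusted p = 0.00018). *Ltc4s*, the leukotriene C4 synthase gene, was at 314 and 257 against 110 and 58.1 CPM, and *Tgfbr2*, a TGF-beta receptor gene, at 73.8 and 71.1 against 28.8 and 34.7 CPM (1.18, SE 0.18, adjusted p = 0.00086). The complement genes *C1qa* and *C1qc*, whose products tag synapses and debris, stood at 7469 and 6775 and at 6306 and 5888 CPM *in vitro* against 2990 and 2719 and 2754 and 2466 CPM in slices. They rose by 1.32 (SE 0.17) and 1.22 (SE 0.15) on the log2 scale, and 7 of 18 complement genes were higher and 3 lower (38.9% and 16.7%, beside 13.3% and 18.6% of all genes, and the same counts in the smaller cell set), with 4 higher without slice 1 day replicate 2. The median of the complement list, 0.34, went from -0.10 to 1.06 over the alternatives. *Csf1r*, the receptor gene that microglia need for survival, was at 988 and 773 against 645 and 492 CPM, but its call (adjusted p = 0.041) was lost in the smaller cell set, without *in vitro* replicate 1 and without slice 1 day replicate 2 (log2 fold change 0.38, 0.52 and 0.50). The *in vitro* means of these 6 genes were under their adult means.

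**Figure D1:**
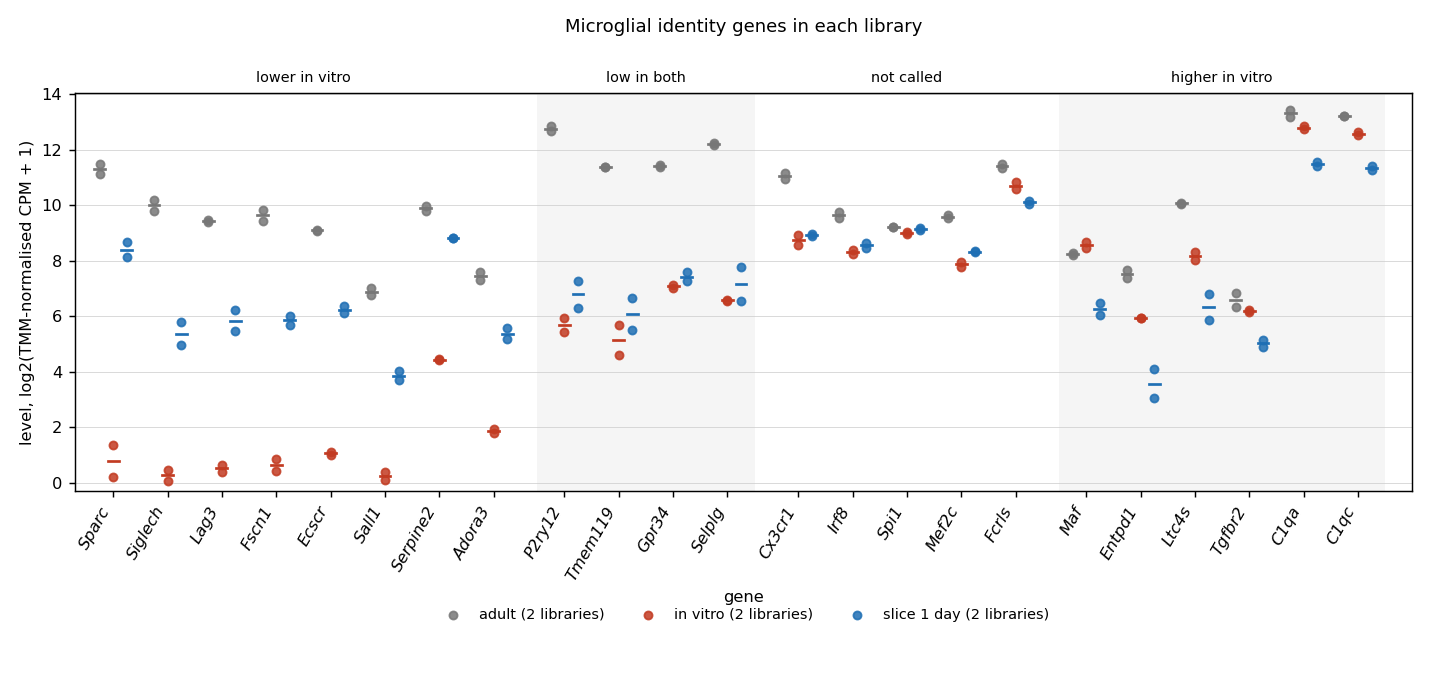
Levels of identity genes on the log2(TMM-normalised CPM + 1) scale, 1 point for each library and a bar at the mean of the 2 libraries of adult, *in vitro* and slice 1 day. The genes at the left, except *Serpine2* and *Adora3*, sit near 0 or 1 *in vitro*, all with slice 1 day between *in vitro* and adult. Those in the middle lie closer to each other in the cultures, though the means of *P2ry12* and *Tmem119* are still apart. Those at the right are higher *in vitro* than at slice 1 day.

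The slice 1 day cells stood out by the genes of hypoxia and glycolysis. Of 22 hypoxia response genes 16 were lower *in vitro* and none was higher (median -1.95 on the log2 scale), and of 26 glycolysis and pentose phosphate genes 17 were lower and 1 was higher (median -1.03), beside 18.6% and 13.3% of all genes. The counts in the smaller cell set were the same for both lists, with medians of -1.92 and -0.79, but without *in vitro* replicate 1 or slice 1 day replicate 2 only 10 and 11 glycolysis genes were lower. *Egln3*, an oxygen-sensing hydroxylase gene that hypoxia induces, was at 2.76 and 4.13 CPM *in vitro* and 141 and 122 CPM in slices (-5.24, SE 0.49, adjusted p = 3.9e-05), against 0.908 CPM in adult. *Slc2a1*, the glucose transporter gene of most cells, was at 13.01 and 14.99 against 202 and 180 CPM (-3.77, SE 0.20, adjusted p = 2.1e-06). *Bnip3*, a mitophagy receptor gene, was at 33.9 and 39.3 against 318 and 288 CPM, and *Hilpda*, which slows the breakdown of lipid droplets, at 12.98 and 16.4 against 139 and 138 CPM. The slice libraries agreed closely for all 4 genes and none of the groups overlapped. *Slc16a3*, the lactate exporter gene, was at 33.3 and 42.9 against 314 and 300 CPM (-3.01, SE 0.26), and *Eno1*, a glycolytic enzyme gene, at 492 and 478 against 1734 and 1718 CPM (-1.83, SE 0.19). The median slice cell had 1.15% and 1.23% of its UMIs in the glycolysis list (quartiles 0.8 to 2.5% and 0.925 to 2.48%, neutrophil cells left out, 4000 UMIs a cell), against 0.525% and 0.55% *in vitro*. Glycolysis also moved with *Malat1*: in slice replicate 1 the *Malat1*-poor cells had a median of 2.08% of UMIs in this list and the others 1.03%, and in replicate 2 the values were 1.31% and 1.14%.

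Genes of amino acid supply and of the response to stress in protein synthesis were higher in slices as well. Of 34 targets of the transcription factor ATF4 and tRNA synthetases, 29 were lower *in vitro* and none was higher (85.3% lower, beside 18.6% of all genes, median -1.32, 28 lower in the smaller cell set). *Phgdh*, the first enzyme gene of serine synthesis, was at 2.79 and 2.05 CPM *in vitro* and 146 and 140 CPM in slices (-5.89, SE 0.22, adjusted p = 2.7e-07), near its adult 179 CPM. *Slc7a11*, the cystine importer gene, was at 1.06 and 0.758 against 31.7 and 33.5 CPM, and *Trib3*, a feedback inhibitor gene of ATF4, at 2.15 and 2.02 against 56.6 and 27.7 CPM (-4.30, SE 0.55). Both were near 1 CPM in adult, so here slice 1 day stood apart from adult and *in vitro* alike, while *Phgdh* stood apart *in vitro*. Of 21 genes of the unfolded protein response 7 were lower *in vitro* and none higher, of 26 heat shock and chaperonin genes 9 and none, and of 59 translation factors 18 lower and 2 higher. The lower shares of 33.3%, 34.6% and 30.5% stand beside 18.6% of all genes. In the smaller cell set 8, 8 and 16 of them were lower and 0, 0 and 1 higher. With 1 library left out the first pair of counts was smaller, at 3 and 3 without *in vitro* replicate 1, 4 and 4 without *in vitro* replicate 2 and 4 and 5 without slice 1 day replicate 2. *Pdia4*, a disulfide isomerase gene of the endoplasmic reticulum, was at 23.1 and 18.8 against 77.3 and 94.995 CPM, and *Hsp90aa1*, an inducible chaperone gene, at 193 and 221 against 452 and 450 CPM. Of 83 cytosolic ribosomal protein genes only 7 were lower and none was higher, a share under that of all genes, with a median of -0.18 (0.02 in the smaller cell set), and 4 were lower without *in vitro* replicate 1 or slice 1 day replicate 2.

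Immediate early genes, which cells turn on within minutes of a stimulus, were higher at slice 1 day almost throughout. Of 24 genes 19 were lower *in vitro* and none was higher (79.2% lower, beside 18.6% of all genes, median -1.79, 20 lower in the smaller cell set). *Atf3*, a stress-induced transcription factor gene, was at 41.7 and 43.9 CPM *in vitro* and 168 and 149 CPM in slices (-1.88, SE 0.20, adjusted p = 0.0001), with 12.4 CPM in adult. *Dusp1*, a phosphatase gene that turns off MAP kinases, was at 19.2 and 10.5 against 102 and 58.4 CPM (-2.42, SE 0.38), *Ppp1r15a*, which restores translation after stress, at 12.2 and 10.97 against 51.9 and 47.5 CPM, and *Ier2* at 32.5 and 30.5 against 106 and 123 CPM. The groups did not overlap for any of these 4 genes, with the *in vitro* level of *Atf3* and *Dusp1* between adult and slice. Within the slice libraries the *Malat1*-poor cells had the lower share, 0.0764% and 0.0949% of UMIs against 0.191% and 0.174% in the others.

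Chemokines, which draw other immune cells, were in part higher in slices. Of 17 genes 9 were lower and 2 were higher *in vitro* (52.9% and 11.8%, beside 18.6% and 13.3% of all genes, median -2.17, and 8 lower and 2 higher in the smaller cell set). Cell by cell the groups were close: at 4000 UMIs, neutrophil cells left out, the median cell had 0.35% of its UMIs in this list in both *in vitro* libraries and 0.375% and 0.425% in the slice libraries. The list includes *Pf4*. *Ccl12* was at 86.2 and 85.7 CPM *in vitro* and 997 and 1678 CPM in slices (-3.96, SE 0.31, adjusted p = 1.5e-05), and *Ccl4* at 72.3 and 89.4 against 916 and 1200 CPM (-3.71, SE 0.48, adjusted p = 0.00026). At 4000 UMIs a cell, *Ccl12* was found in 55.3% and 83.8% of slice cells and 14.96% and 15.4% of *in vitro* cells, but also in 65.7% of the 67 neutrophil cells of slice replicate 2, which were counted apart. *Ccl5* was at 13.3 and 2.53 against 465 and 244 CPM, a fall of 5.48 on the log2 scale (SE 1.34, adjusted p = 0.0095) that was -7.05 without *in vitro* replicate 1 and lost its call without *in vitro* replicate 2 (-4.65, adjusted p = 0.072). The interferon-induced chemokine gene *Cxcl10* was at 2.25 and 2.64 against 46.9 and 37.8 CPM and was found in 2.07% and 3.51% of slice cells at 4000 UMIs. The 2 genes called higher *in vitro* were *Ccl8*, at 12.9 and 20.6 against 1.57 and 1.03 CPM (3.78, SE 0.47, adjusted p = 0.00022, named after its values were seen), and *Pf4*, the platelet factor 4 gene, also a marker of border-associated macrophages, at 2043 and 1992 CPM *in vitro* and 242 and 210 CPM in slices (3.16, SE 0.56, adjusted p = 0.0017).

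NF-kB targets followed in part, with 12 of 28 lower and 3 higher *in vitro* (42.9% and 10.7%, beside 18.6% and 13.3% of all genes, and 14 and 2 in the smaller cell set). Without *in vitro* replicate 2 they were 7 lower and 2 higher, and 1 was higher without *in vitro* replicate 1 or slice 1 day replicate 2. *Bcl2a1a*, a survival gene, was at 7.45 and 4.13 CPM *in vitro* and 78.4 and 65.2 CPM in slices (-3.63, SE 0.25), whereas its near copy *Bcl2a1b* was at 1438 and 1515 against 613 and 569 CPM (1.32, SE 0.14). The *Bcl2a1* genes are near identical, and how the reads were split among them is uncertain. *Il1b*, the interleukin 1 beta gene, was at 23.2 and 8.48 against 71.8 and 56.3 CPM (-2.01, SE 0.41, adjusted p = 0.0038, and -2.83 and -1.38 without *in vitro* replicate 1 or 2), with 33.0% of its slice UMIs in neutrophil cells. Of 21 G1 cyclins and cell cycle inhibitors 11 were lower and 3 were higher *in vitro* (52.4% and 14.3%, 10 and 3 in the smaller cell set, and 7 and 1 without *in vitro* replicate 2), with 1 higher without slice 1 day replicate 2. *Cdkn1a*, the p21 inhibitor gene, was at 114 and 114 against 519 and 509 CPM (-2.18, SE 0.36, adjusted p = 0.0011), *Gadd45b* at 4.75 and 6.06 against 50.8 and 63.2 CPM, and *Myc* at 6.78 and 4.995 against 56.4 and 43.9 CPM (-3.08, SE 0.41, adjusted p = 0.00033).

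**Figure D2:**
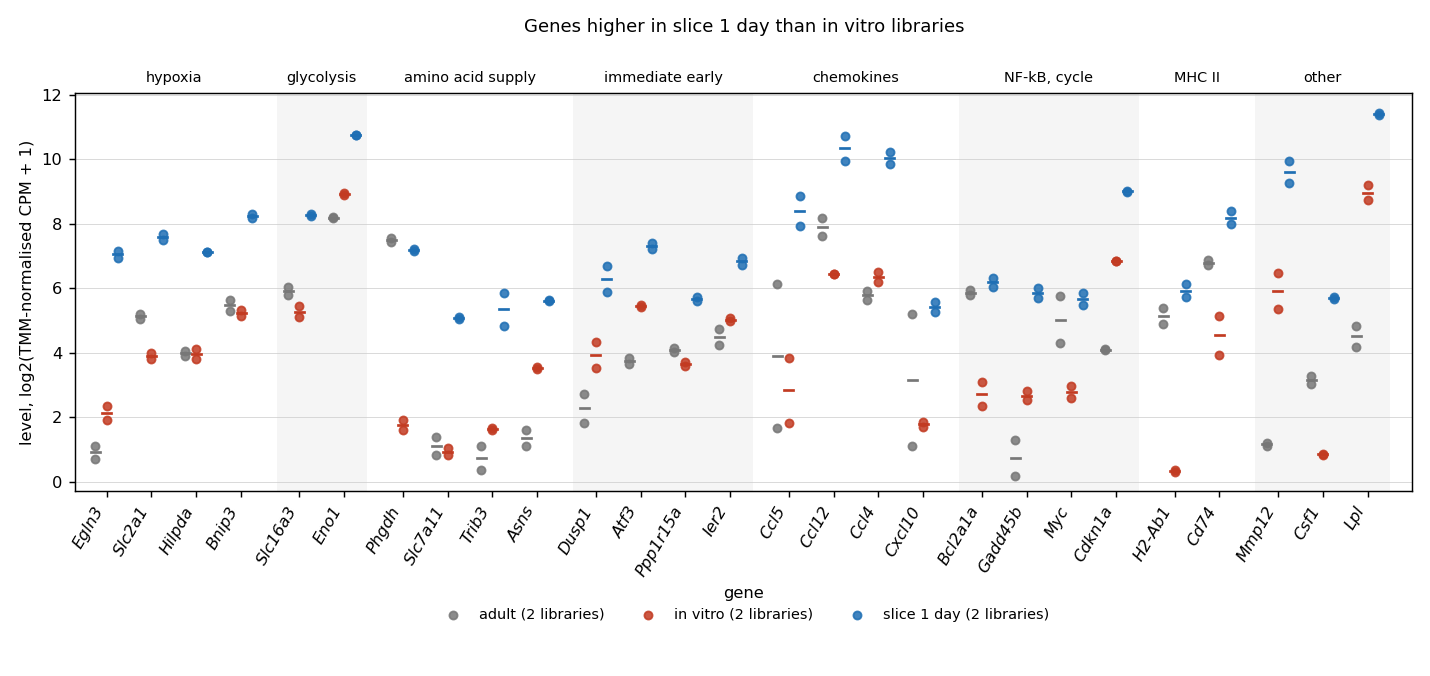
Levels of genes higher at slice 1 day on the log2(TMM-normalised CPM + 1) scale, 1 point for each of the 2 libraries of adult, *in vitro* and slice 1 day and a bar at their mean. Slice 1 day is above *in vitro* for each gene shown, while *Phgdh*, *Bcl2a1a*, *Myc* and *H2-Ab1* are close to adult in slices and low *in vitro*, and *Egln3*, *Slc7a11* and *Mmp12* are low in adult.

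Single genes of matrix turnover, growth and lipid uptake were also higher in slices. *Mmp12*, the macrophage elastase gene, was at 40.3 and 87.3 against 985 and 612 CPM (-3.64, SE 0.71, adjusted p = 0.0029, and -4.23 without *in vitro* replicate 2). *Tgfbi*, a TGF-beta induced matrix gene, was at 75.7 and 82.5 against 630 and 589 CPM (-2.95, SE 0.20). *Csf1*, which codes for the growth factor that CSF1R binds, was at 0.803 and 0.786 CPM *in vitro* and 51.6 and 49.8 CPM in slices (-5.98, SE 0.24, adjusted p = 4e-07), above its adult 7.93 CPM. Disease-associated microglia genes were mixed, with 10 of 33 lower and 14 higher *in vitro* (30.3% and 42.4%, beside 18.6% and 13.3% of all genes, and 9 and 15 in the smaller cell set): *Lpl*, the lipoprotein lipase gene, was at 423 and 593 against 2645 and 2795 CPM, and *Ctsl*, a lysosomal protease gene, at 842 and 1166 against 3806 and 3703 CPM. *Cd14*, a co-receptor gene for bacterial lipid, was at 266 and 271 against 1007 and 1010 CPM (-1.91, SE 0.18). *Hmox1*, the haem oxygenase gene, was at 584 and 572 against 1693 and 1936 CPM.

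Antigen presentation split by class. Of 9 MHC class II genes 5 were lower and none was higher *in vitro* (55.6% lower, beside 18.6% of all genes, 4 and none in the smaller cell set, and 3 lower without slice 1 day replicate 1). *H2-Ab1*, a class II chain gene, was at 0.225 and 0.281 CPM *in vitro* and 68.7 and 51.8 CPM in slices (-7.82, SE 0.66, adjusted p = 2.4e-05), and *Cd74*, the invariant chain gene, at 34.4 and 14.4 against 338 and 251 CPM (-3.59, SE 0.36, and -4.28 without *in vitro* replicate 1). *Cd74* was found in 45.7% and 43.6% of slice cells and in 8.74% and 5.01% of *in vitro* cells at 4000 UMIs, and in 8.96% of the neutrophil cells of slice replicate 2. Of 20 class I and immunoproteasome genes 6 were higher and 1 was lower *in vitro* (30% and 5%, beside 13.3% and 18.6% of all genes, and 5 and 1 in the smaller cell set). The higher count was 3 without slice 1 day replicate 2 and 1 with limma on the mean CPM over cells. *H2-D1* was at 1742 and 1664 against 914 and 638 CPM (1.13, SE 0.24), and *Psmb9* at 95.6 and 86.0 against 44.8 and 36.9 CPM.

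The 12 largest falls *in vitro* by the fixed rule were genes of neutrophils and red cells, found in slices and hardly *in vitro*. *S100a9*, a calprotectin subunit gene of neutrophils, had 0.0642 and 0.140 CPM *in vitro* and 2050 and 6705 CPM in slices, with 81.3% of its slice UMIs in the neutrophil cells. *Retnlg* had no UMI *in vitro* and 306 and 871 CPM in slices, at least 13092 times the floor of 0.0449 CPM that 3 counts over both *in vitro* libraries allow. *Hbb-bs*, a haemoglobin gene, had no UMI *in vitro* and was at 1508 CPM in slice replicate 1 and 0.515 CPM in replicate 2, so its call rests on replicate 1: without it the fitted log2 fold change went from -16.28 to -5.91 (adjusted p = 0.68). In all, 224 tested genes had no UMI *in vitro*, of which 11 reached 32 CPM at slice 1 day, and 50 had no UMI at slice 1 day, of which 0 reached 32 CPM *in vitro*. The *in vitro* libraries were the deeper ones, so the counts are not on the same footing.

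The largest rise *in vitro* among the genes of the fixed rule was that of *Nxpe5*, at 70.6 and 66.1 CPM *in vitro* against 1.05 and 1.24 CPM in slices (5.85, SE 0.30, adjusted p = 7.6e-06). *Ms4a7*, a membrane gene of brain macrophages outside the parenchyma, was at 2440 and 2440 CPM *in vitro* and 69.5 and 51.3 CPM in slices (5.34, SE 0.35, adjusted p = 6.6e-06), with 2.34 CPM in adult. It was found in 98.8% of the cells of both *in vitro* libraries and in 11.4% and 10.7% of slice cells at 4000 UMIs. *Gpnmb*, a glycoprotein gene of lipid-laden macrophages, was at 599 and 760 against 18.3 and 21.5 CPM (5.08, SE 0.27, adjusted p = 4.4e-06), and was found in 54.7% and 70.7% of *in vitro* cells. *Lyz2*, the lysozyme gene, was at 36986 and 36561 against 1182 and 1702 CPM (4.67, SE 0.29, adjusted p = 5.3e-06). *Bmp2*, a growth factor gene, was at 44.3 and 30.1 against 0.786 and 1.34 CPM (4.99, SE 0.46, and 5.59 without slice 1 day replicate 2), and *Cd93*, a receptor gene for the uptake of dying cells, at 112 and 115 against 3.67 and 4.22 CPM (4.81, SE 0.23). The *in vitro* libraries were close to each other, and each of these genes was called also in the smaller cell set.

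Of the 11 border-associated macrophage markers 6 were higher *in vitro*, 1 was lower and 4 were not called (54.5% higher and 9.09% lower, beside 13.3% and 18.6% of all genes), and the counts were the same in the smaller cell set. *Mrc1*, the mannose receptor gene, was at 383 and 341 CPM *in vitro* and 25.9 and 19.2 CPM in slices (4.03, SE 0.28, adjusted p = 9e-06), and was found in 64.3% and 61.9% against 7.75% and 6.42% of cells. *Stab1*, a scavenger receptor gene, was at 609 and 560 against 113 and 109 CPM, *Colec12* at 155 and 153 against 26.5 and 23.8 CPM, and *Folr2*, a folate receptor gene, at 55.9 and 107 against 14.9 and 17.3 CPM. *F13a1*, another marker of these macrophages, was at 40.4 and 30.7 against 26.5 and 26.3 CPM and did not pass the test. The marker called lower was *Lyve1*, a hyaluronan receptor gene, at 0.707 and 0.309 against 4.46 and 6.08 CPM (-3.39, SE 0.64, adjusted p = 0.0031, and -3.99 without *in vitro* replicate 1), named after its values were seen. It was not called without *in vitro* replicate 2 (-2.82), which left no marker lower. As given above, at least 2 of the 11 markers were found in 94.2% and 95.5% of *in vitro* cells. The median of 7 microglia markers in these libraries was that of the slice cells. This count does not say which markers were found, so it cannot tell microglia from other macrophages. Among thinned *in vitro* cells, *Siglech* was found in 0.124% and 0%, *P2ry12* in 20.55% and 15.3%, and *Csf1r* in 94.6% and 89.9%. In slice cells, neutrophil cells left out, the values were 15.5% and 9.81%, 34.1% and 24.3%, and 77.3% and 78.9%.

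Lysosomal genes and some genes of lipid carriage were higher *in vitro*. The list of lipid storage, efflux and uptake as a whole had 8 of 26 genes higher and 8 lower (30.8% each, beside 13.3% and 18.6% of all genes, median 0.20, 9 and 8 in the smaller cell set), with *Lpl* and *Hilpda* among the lower ones, and 5 and 4 were higher without *in vitro* replicate 2 and slice 1 day replicate 2. *Apoe*, the apolipoprotein E gene, was at 73978 and 65392 CPM *in vitro* and at 7536 and 6352 CPM in slices (3.33, SE 0.24, adjusted p = 9.2e-06), with 849 CPM in adult. *Pltp*, a phospholipid transfer gene, was at 142 and 219 against 10.7 and 6.70 CPM, and *Lipa*, the lysosomal acid lipase gene, at 575 and 495 against 164 and 145 CPM. Of 48 lysosomal enzyme and membrane protein genes 20 were higher and 3 were lower *in vitro* (41.7% and 6.25%, median 0.45, 19 and 3 in the smaller cell set). *Ctsd*, a lysosomal protease gene, was at 9322 and 9916 against 3448 and 3002 CPM (1.58, SE 0.19, adjusted p = 0.0002), *Psap*, the prosaposin gene, at 3765 and 3903 against 1184 and 898 CPM, and *Hexa*, a hexosaminidase gene, at 1444 and 1472 against 403 and 325 CPM (2.00, SE 0.16). *Ctsd* and *Hexa* were near their adult 9142 and 1248 CPM *in vitro*, so the slice cells were the ones apart from adult, while *Apoe*, *Pltp* and *Lipa* were above adult in both cultures. Of the iron genes, the ferritin heavy chain gene *Fth1* was at 23959 and 27218 against 11339 and 11290 CPM (1.18, SE 0.16), and the iron exporter gene *Slc40a1* at 93.2 and 78.9 against 33.8 and 25.4 CPM.

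Genes that interferon induces were higher *in vitro*, 23 of 47 with 1 lower (48.9% and 2.13%, beside 13.3% and 18.6% of all genes, median 0.83 on the log2 scale), and 17 and 2 in the smaller cell set (median 0.59). The higher count was 14 without *in vitro* replicate 1, 11 without slice 1 day replicate 2 and 10 with limma on the mean CPM over cells. *Ifi27l2a* was at 1359 and 1498 CPM *in vitro* and 145 and 84.4 CPM in slices (3.64, SE 0.42, adjusted p = 0.00014) and was found in 82.3% of the cells of both *in vitro* libraries and in 21.5% and 16.2% of slice cells. *Ifi203* was at 47.7 and 43.1 against 2.10 and 1.13 CPM, *Rtp4* at 146 and 125 against 42.7 and 36.9 CPM and *Trim30a* at 83.8 and 73.0 against 30.4 and 22.4 CPM. *Cxcl10*, which interferon also induces, went the other way. The median cell had 0.375% of its UMIs in this list in both *in vitro* libraries and 0.1% in both slice libraries.

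The Fc receptor, C-type lectin, scavenger receptor and annexin lists had more members higher *in vitro* than the 13.3% of all genes. Of 11 Fc receptor genes 6 were higher and 1 was lower, of 15 C-type lectin genes 8 and 3, of 24 scavenger receptor genes 10 and 6, and of 18 annexin, S100 and galectin genes 10 and none. Beside 18.6% of all genes, the lower lectin and scavenger receptor genes (20% and 25%) were near the background. In the smaller cell set the counts were 6 and 1, 8 and 3, 10 and 7, and 11 and 0. Without slice 1 day replicate 2 only 3 Fc receptor and 4 lectin genes were higher, and 5 lectin genes without *in vitro* replicate 1. *Fcgrt*, the neonatal Fc receptor gene, was at 352 and 357 against 116 and 106 CPM (1.67, SE 0.13), *Clec12a*, an inhibitory lectin gene, at 152 and 171 against 13.6 and 23.7 CPM (3.07, SE 0.31), and *S100a1* at 226 and 247 against 47.2 and 52.4 CPM (2.24, SE 0.14). *Msr1*, the scavenger receptor A gene, and *Lilrb4a*, an inhibitory receptor gene, were lower, by 1.93 and 1.70 on the log2 scale. Each of these 5 was called also in the smaller cell set.

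**Figure D3:**
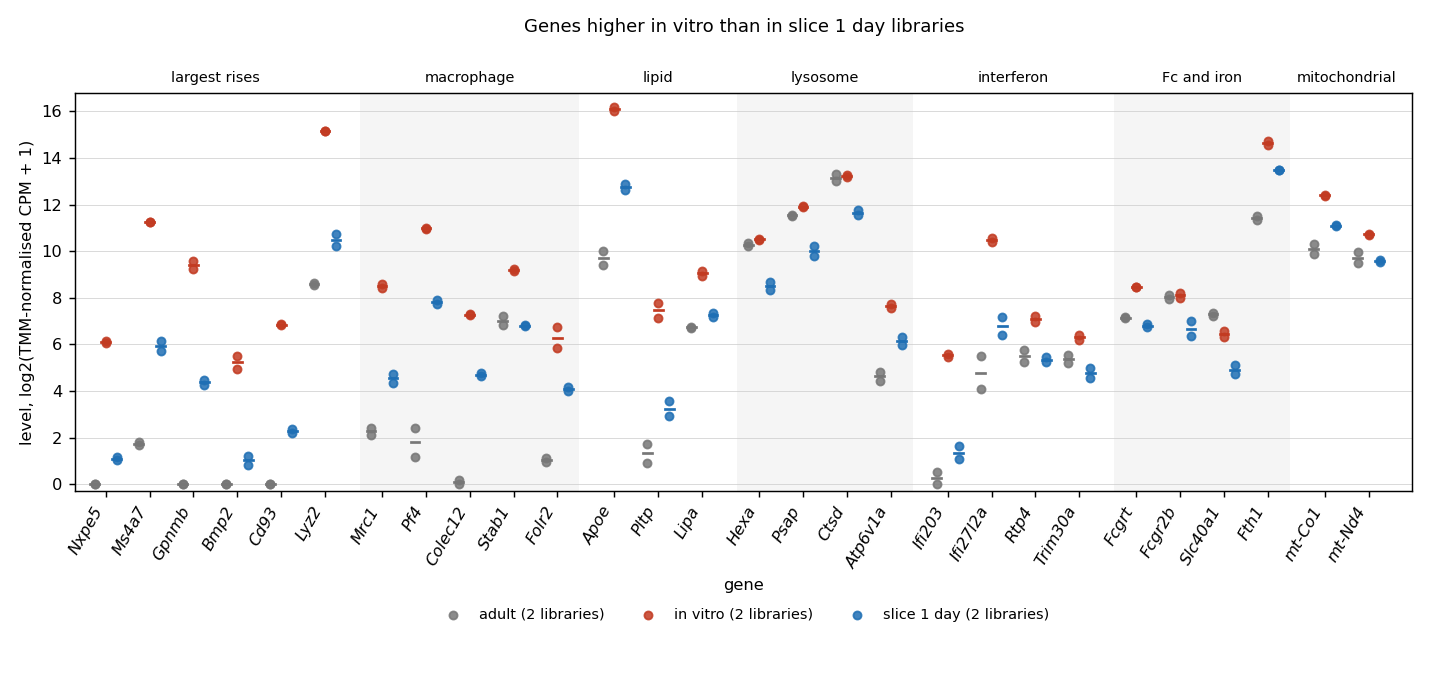
Levels of genes higher *in vitro* on the log2(TMM-normalised CPM + 1) scale, 1 point for each of the 2 libraries of adult, *in vitro* and slice 1 day and a bar at their mean. *Nxpe5*, *Gpnmb*, *Bmp2* and *Cd93* are at 0 in adult, whereas *Hexa*, *Psap* and *Ctsd* are close to adult *in vitro* and lower at slice 1 day.

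Mitochondrially encoded genes of energy supply were higher *in vitro* in both cell sets, and nuclear ones mainly in the smaller cell set. Of the 13 genes encoded by mitochondrial DNA 7 were higher *in vitro* and none was lower (53.85% higher, beside 13.3% higher and 18.6% lower of all genes, median 0.91, 8 and 0 in the smaller cell set). *mt-Co1*, a subunit gene of complex IV, was at 5324 and 5450 against 2167 and 2200 CPM (1.303, SE 0.17, adjusted p = 0.00034). The limit on mitochondrial UMIs in the choice of cells acts on these genes, and it removed 59 and 69 cells *in vitro* and 7 and 9 cells of the slices. Of 85 nuclear genes of the respiratory chain and ATP synthase 7 were higher and 2 lower (8.24% and 2.35%), both under the share of all genes. In the smaller cell set 30 of 84 were higher and 1 lower, beside 12.5% higher and 18.7% lower of all genes in that set. *Ndufa13*, a complex I subunit gene, was at 568 and 598 against 325 and 329 CPM (0.84, SE 0.13), and 1.03 in the smaller cell set.

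The counts of cell division genes depended on the cell set and on single libraries. Of 48 DNA replication genes 22 were lower *in vitro* and none was higher (45.8% lower, beside 18.6% of all genes, median -0.85), and 9 were lower in the smaller cell set. Only 4 were lower without *in vitro* replicate 1, 9 without *in vitro* replicate 2 and 3 without slice 1 day replicate 2. *Rrm2*, a nucleotide reductase gene, was at 7.93 and 13.6 against 35.1 and 68.8 CPM (-2.30, SE 0.50, adjusted p = 0.0052), lost without *in vitro* replicate 1 (-1.88) and slice 1 day replicate 2 (-1.66) and in the smaller cell set. Of 49 mitosis genes 6 were higher and 1 lower *in vitro* (12.2% and 2.04%, under the 13.3% and 18.6% of all genes), and 13 and 0 in the smaller cell set, with 3 higher without slice 1 day replicate 1. The median of the list, 0.30, went from -0.55 without cycling cells to 0.77 in the smaller cell set and was -0.03 without *in vitro* replicate 2. *Cenpa*, the centromeric histone gene, was at 112 and 156 against 43.2 and 55.2 CPM (1.43, SE 0.22, adjusted p = 0.00069). Cells with at least 4 of the mitosis genes made up 11.8% and 18.7% *in vitro* and 16.8% and 25.1% in slices at 4000 UMIs, and 43.6% and 54.8% against 22.97% and 50.9% without thinning, so the shares of the groups overlap and their order turns with depth. The neutrophil cells are included in these shares.

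The remaining lists were mixed, with counts lower and higher *in vitro* given in that order. Arginine and polyamine genes (13 tested) had 7 and 2, matrix genes (24) 12 and 6, cytokines and growth factors (29) 13 and 8, NRF2 antioxidant targets (28) 12 and 8 and Bcl2 family genes (17) 7 and 1, so that 41.2 to 53.8% of their members were lower. Chemokine receptors (13) had 5 and 1, prostaglandin and leukotriene enzymes (16) 6 and 4, cytokine receptors (28) 10 and 4, toll-like receptors and adaptors (23) 8 and 7, inflammasome genes (18) 6 and 3, metallothioneins and zinc transporters (10) 3 and 0, and nuclear long noncoding RNAs (7) 3 and 0. TGF-beta pathway genes (23) had 6 and 7, iron genes (16) 4 and 4 and proteasome subunits (39) 7 and 1. Actin genes (28), cholesterol and fatty acid synthesis genes (28), vacuolar ATPase subunits (19), mitochondrial ribosomal proteins (77) and NADPH oxidase genes (8) had at most 7 and 3. In the smaller cell set the proteasome count was 2 and 1, matrix 12 and 3, arginine 5 and 2, prostaglandin 4 and 5, nuclear noncoding RNAs 5 and 0, vacuolar ATPase 1 and 7 and mitochondrial ribosomal proteins 4 and 5. Single libraries moved several of these counts by over 1.5 times. Without *in vitro* replicate 1 the lower counts were 1 for proteasome subunits, 3 for mitochondrial ribosomal proteins, 5 for toll-like receptors, 1 for cholesterol genes and 0 for metallothioneins. Without *in vitro* replicate 2 they were 1, 4, 3, 1 and 1 for the same lists in that order, and 6 for NRF2 targets, 8 for cytokines and 4 for Bcl2 genes. Without slice 1 day replicate 1 they were 11 for proteasome subunits, 5 for toll-like receptors and 1 for metallothioneins. Without slice 1 day replicate 2 they were 2, 3, 4, 1 and 1 for the first 5 lists in that order, 7 for NRF2 targets and 8 for cytokines. The higher counts were 3 for matrix genes without *in vitro* replicate 2 or slice 1 day replicate 1, and without slice 1 day replicate 2 they were 2 for matrix genes, 4 for TGF-beta genes, 4 for toll-like receptors and 2 for cytokine receptors. Vacuolar ATPase genes had 6 higher without *in vitro* replicate 1 or 2 and 7 without slice 1 day replicate 1. These shares stand beside 18.6% lower and 13.3% higher over all genes, and no list was tested as a set.

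**Figure D4:**
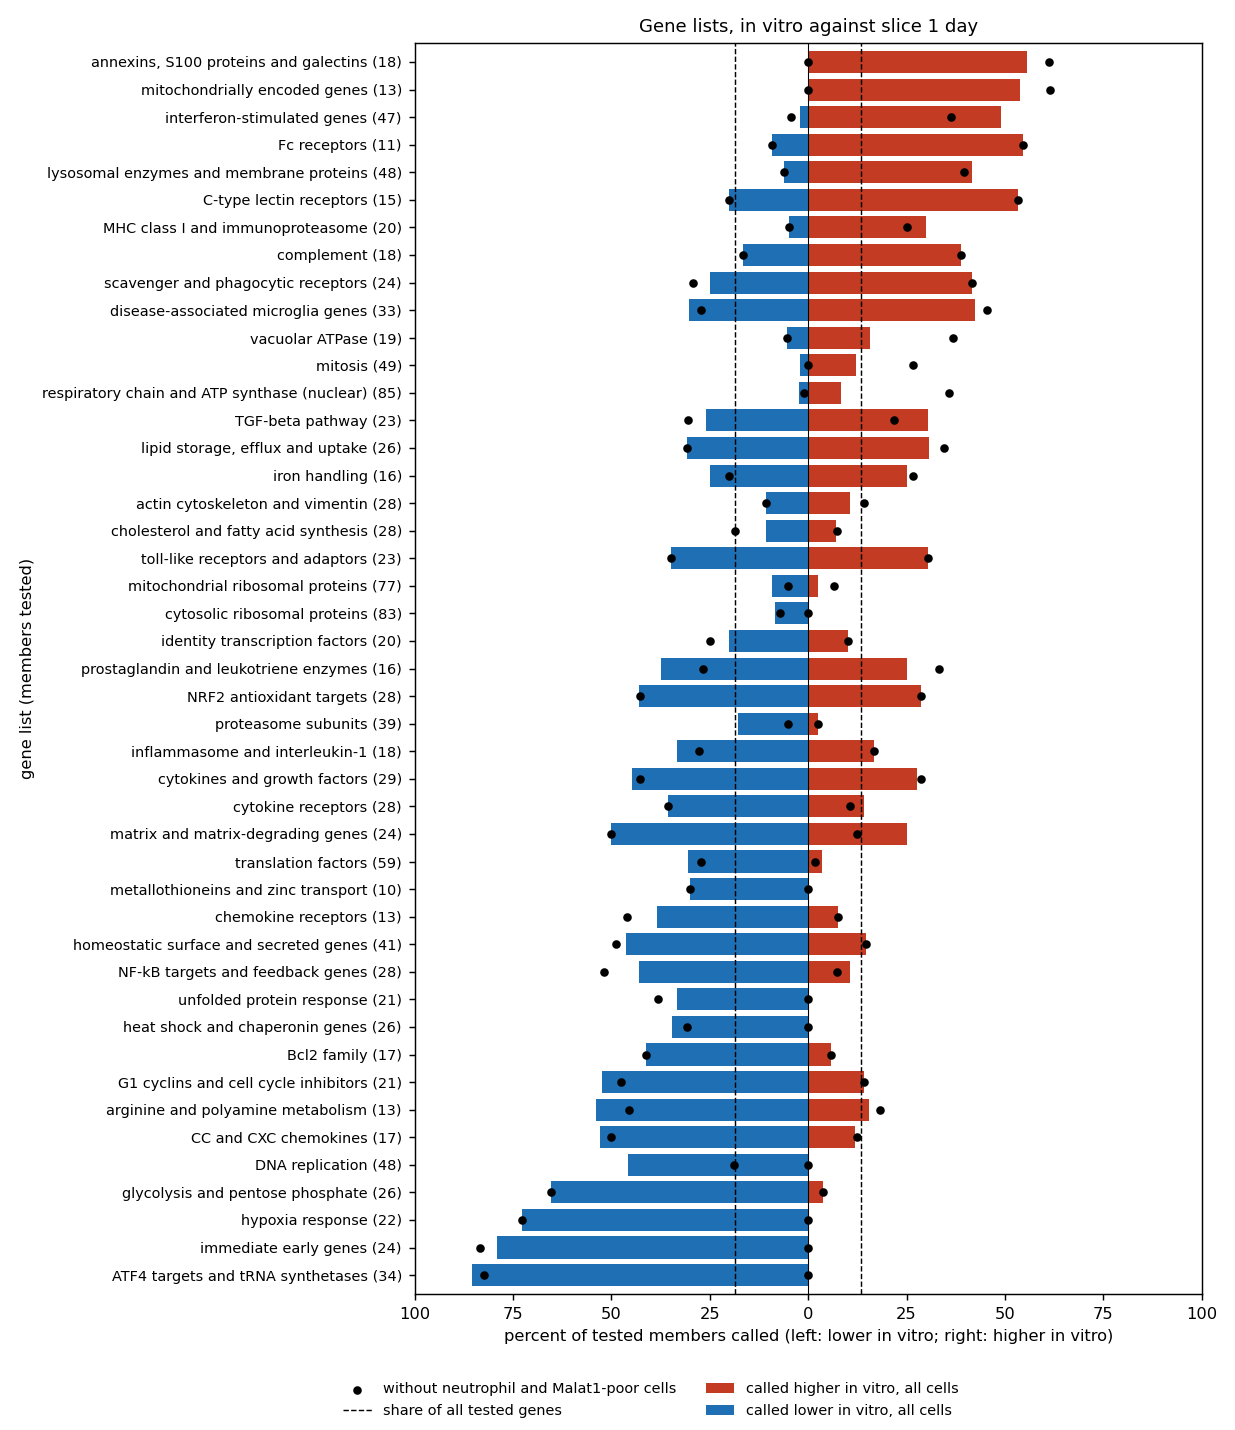
Share of the tested members of each gene list called higher (right) or lower (left) *in vitro* against slice 1 day, with dots for the cell set without neutrophil and *Malat1*-poor cells and dashed lines at the 13.3% and 18.6% of all genes. ATF4 targets, immediate early, hypoxia and glycolysis genes reach farthest to the left and annexin, Fc receptor, mitochondrially encoded and C-type lectin genes to the right. Of the lists drawn, DNA replication, respiratory chain and vacuolar ATPase genes move most between the cell sets.

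Promoters of called members were searched for motifs, since the groups moved together. The search covered the 250 bases before the start in RefSeq (GRCm38.p6) on both strands. The cyclic AMP and ATF element TGACGTCA was in 4 of 15 immediate early genes lower *in vitro* that had a promoter in the table (26.7%, beside 1.77% of 27025 genes) and in 0 of 24 ATF4 list genes. No other element was searched in the ATF4 list, so this does not show that its promoters lack an ATF4 motif. The AP-1 element (TGAGTCA or TGACTCA) was in 1 of 15 immediate early genes (6.67%, beside 5.16%). The NF-kB motif was in 3 of 5 chemokines lower *in vitro* (60%) and 3 of 11 NF-kB list genes lower *in vitro* (27.3%), beside 8.23%, and in 0 of 2 chemokines and 1 of 2 NF-kB list genes higher *in vitro*. The CLEAR E-box CACGTG was in 4 of 17 lysosomal genes higher *in vitro* (23.5%, beside 6.86%) and 1 of 2 lower, and the core of the interferon element, GAAANNGAA, in 7 of 17 interferon genes higher *in vitro* (41.2%, beside 8.18%) and 0 of 1 lower. A match describes the letters of the window and is not a binding site. One stretch is shown for each motif but AP-1, from a gene named above, on the strand of the gene, with the motif in capitals: *Ppp1r15a* (chr7:45526269-45526300, minus strand, ATF element), *Cxcl10* (chr5:92348963-92349068, minus strand, NF-kB), *Ctsd* (chr7:142387900-142388077, minus strand, CLEAR E-box) and *Ifi203* (chr1:173942499-173942547, minus strand, interferon element).
Ppp1r15a: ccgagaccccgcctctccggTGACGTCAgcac
Cxcl10: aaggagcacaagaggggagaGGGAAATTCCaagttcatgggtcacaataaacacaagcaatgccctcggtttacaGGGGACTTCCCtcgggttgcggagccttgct
Ctsd: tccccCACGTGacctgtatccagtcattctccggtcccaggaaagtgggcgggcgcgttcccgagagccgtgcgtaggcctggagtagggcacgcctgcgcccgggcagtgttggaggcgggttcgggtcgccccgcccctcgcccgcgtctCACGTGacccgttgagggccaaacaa
Ifi203: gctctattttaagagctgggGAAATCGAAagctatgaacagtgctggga
These stretches end 1 base (*Ppp1r15a*), 74 bases (*Cxcl10*), 73 bases (*Ctsd*) and 7 bases (*Ifi203*) before the start of the gene, and the 3 matches in *Cxcl10* include overlapping ones, which share a run of capitals.

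**Figure D5:**
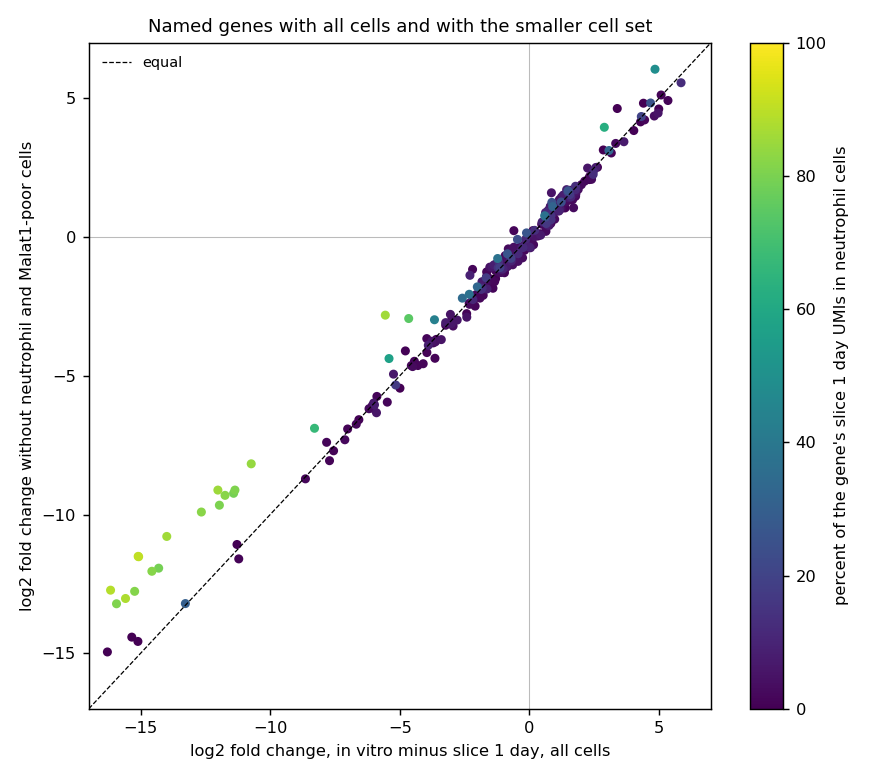
Log2 fold change, *in vitro* minus slice 1 day, of each named gene with all cells (x) and without neutrophil and *Malat1*-poor cells (y), coloured by the percent of its slice 1 day UMIs in neutrophil cells, with a dashed line at equal values. Genes with most of their slice UMIs in neutrophil cells lie above the line at the far left, at a smaller fall, while most other genes lie nearer to it.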

How the data were processed

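Single cell RNA libraries of FACS-sorted mouse microglia (10x Genomics 3' v2) were analysed, 2 in each of 5 groups. The authors deposited raw UMI counts per gene symbol and cell barcode, 1 table per library. The submitters' processing notes name Cell Ranger 1.3.0 and mm10. A gene missing from a library's table was taken as 0. Cells past the study's limits (5% mitochondrial UMIs, 400 genes, 30000 UMIs) were removed, and the counts were summed per library.

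The quasi-likelihood test of edgeR 4.0.16 (glmQLFit, glmQLFTest) under R 4.3.3 was run in a single model with a term for each of the 5 groups and all 10 libraries, after TMM normalisation and after filterByExpr, whose count minimum was 10. The common biological coefficient of variation was 18.3%. The p-values of the 12157 genes tested were adjusted by the Benjamini-Hochberg method. As in the study, calls needed an adjusted p under 0.05 and a fold over 1.5. The script was tested on simulated counts with known changes. CPM are TMM-normalised, and errors are standard errors of the fitted log2 fold change. Pseudobulk levels cannot tell fewer cells with an RNA from less RNA per cell. For shares of cells, each cell was thinned to 4000 UMIs, which left out 4 and 9 *in vitro* and 124 and 121 slice cells. Doublets were not called. The 4 libraries shared at most 11 barcodes in any pair. Python 3.11.15 with pandas 2.3.3 and numpy 2.4.6 was used for the rest.

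The comparison and the gene lists were chosen with earlier results of these data known. Named genes were the 12 largest called changes in each direction with at least 32 CPM in 1 group, up to 4 called members at each end of every list, set identity and sort genes, and markers of other cells. Genes lower *in vitro* and outside neutrophil cells were named after their values were seen. Some genes of the lists and of the naming rule are not reported here but stay in the counts. Gene coordinates were taken from RefSeq promoters of GRCm38.p6. Counting error alone is covered by the floor of 3 counts. Alternatives were other scalings, filters, cell sets and tools, and each replicate left out.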

Additional observations from a re-analysis of the deposited data

How the results depend on the processing

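The directions were stable and the counts less so. Against 1619 genes higher and 2256 lower *in vitro*, leaving out 1 library gave 958 to 1283 higher and 1246 to 1909 lower, with 958 and 1261 without slice 1 day replicate 2, 1185 and 1291 without *in vitro* replicate 1, and 1228 and 1246 without *in vitro* replicate 2. Limma on the mean CPM over cells gave 584 and 1417, and DESeq2 1599 and 2124. The edgeR fit on only the 4 libraries of this contrast gave 2205 higher and 2288 lower. Of 104 named genes followed over the alternatives, 97 were the same with limma and 7 lost their call. Under each alternative run, no gene called in the comparison was called in the other direction, and 47.9 to 98.9% of the calls remained. The labels give the libraries shared numbers and letters but do not say that these mark a shared culture or day. The deviations of same-numbered libraries correlated at r = 0.087 over all tested genes and 0.193 over the 3917 genes of higher level, with 2 pairs, and the fit with the replicate block gave 1573 higher and 2183 lower. Of the genes named, 2 that were not called changed sign: *Cx3cr1* was at 0.051 on the log2 scale without cycling cells and from -0.287 to 0.049 with 1 library left out (0.049 without *in vitro* replicate 2), and *Selplg* from -1.155 to 0.013 with 1 library left out (0.013 without slice 1 day replicate 1). The fit without cells of any other type was not run, since all 1014 cells of slice 1 day replicate 2 had at least 2 neutrophil marker genes, and the fits without neutrophil or *Malat1*-poor cells were chosen after seeing the data. The 3661690 UMIs of slice 1 day replicate 1 limit low genes most.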

Other observations

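Genes that tell the sex of the animals differed between the libraries. *Xist*, of the inactive X chromosome, was at 325 and 427 CPM *in vitro* and at 675 and 2.78 CPM in slice 1 day replicates 1 and 2. The Y-linked gene *Eif2s3y* was at 29.7 and 17.8 CPM *in vitro* and at 0 and 79.0 CPM in the slice replicates, and *Ddx3y* was at 21.97 and 14.7 and at 0 and 28.4 CPM. The slice 1 day replicates thus differed in this respect, and the *in vitro* libraries held both kinds of RNA.

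Several genes not described above also differed, of which *Meg3*, *Scd2*, *Hpgd* and *Cat* are members of lists counted there. *Meg3*, a maternally expressed long noncoding RNA of neurons, had no UMI in either *in vitro* library and 35.6 and 11.95 CPM at slice 1 day. *Scd2*, a fatty acid desaturase gene, was at 0.739 and 0.758 CPM *in vitro* and 52.9 and 57.4 CPM in slices (edgeR log2 fold change -6.19, SE 0.29, adjusted p = 7.9e-07). *Gpr84*, a receptor gene for medium-chain fatty acids, was at 19.1 and 9.85 against 277 and 379 CPM, and *Hcar2*, a receptor gene for ketone bodies, at 0.867 and 0.309 against 38.8 and 36.7 CPM. *Scd2* and *Hcar2* were above their adult 13.6 and 6.86 CPM in both slice libraries. *Hpgd*, which breaks down prostaglandins, went the other way, at 354 and 232 against 73.7 and 47.3 CPM (2.29, SE 0.31, adjusted p = 0.00035), as did *Cat*, the catalase gene, at 116 and 90.0 against 28.6 and 30.4 CPM.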
